A study of Homo sapiens with 18 samples.

Results

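The genes described are 10 markers of the epithelial and mesenchymal states, VIM, ZEB1, ZEB2, SNAI1, SNAI2, TWIST1, CDH1, CDH2, FN1 and CD44, in the breast cancer line MDA-MB-231. They were taken by symbol from the 57448 gene rows of an RNA-seq count matrix, and 7 of the 10 passed a filter of at least 1 CPM (counts scaled to a common number of counted reads) in at least 3 of 18 libraries. This filter left 15587 genes, and each of the 7 also reached it without the libraries of the side where it was higher, in each comparison of 2 sides. The study asked what loss of GPS2, a subunit of the NCoR/SMRT corepressor complexes, does in triple negative breast cancer cells and whether AKT activity is involved. The 18 libraries form 6 groups of 3 replicates. WT stands for the parental cells. KO1 and KO2 are lines in which GPS2 was targeted by Cas9 with separate sets of sgRNA, delivered by lentivirus, selected with puromycin and kept as mixed pools, not clones. The myrAKT group received AKT1 with a membrane-anchoring myristoylation signal from a retrovirus with puromycin resistance. No control virus or selection is named for WT. Against WT, effects of virus and any selection thus cannot be told apart from those of GPS2 targeting or myrAKT. KO1+MK and KO2+MK are the knockout lines after 4 h with 10 µM MK2206, an allosteric AKT inhibitor, and their comparators are labelled only as the untreated lines, with no vehicle named. All groups grew in DMEM with 10% fetal bovine serum, and no treated WT or myrAKT group is part of the design.

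Between 33725461 and 37128614 reads were counted on genes in the WT libraries, 37501225 to 39319910 in KO1, 35627965 to 39027425 in KO2 and 30287210 to 37046141 in myrAKT. The treated libraries were shallower, with 23419198 to 29365207 counted reads in KO1+MK and 27544978 to 29939536 in KO2+MK. The labels do not say that replicates came from separate cultures, so p-values measure the spread between these libraries, which may be technical. Levels below are CPM on library sizes corrected by TMM, a scaling that centres the bulk of genes.

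GPS2 (ENSG00000132522) RNA was 4.39, 4.88 and 4.40 CPM in the WT libraries, 4.52, 4.45 and 4.50 in those labelled KO1 and 5.89, 6.07 and 6.12 in those labelled KO2. The WT and KO1 libraries overlapped, and each KO2 library lay above each WT library, so the amount of GPS2 RNA did not mark the knockout libraries. A count per gene does not show edits in a transcript, and protein was not measured by these libraries. AKT1 (ENSG00000142208) was 134.5 ± 0.989 CPM (SD, n = 3) in WT and rose to 230.1 ± 12.1 CPM (SD, n = 3) in myrAKT (log2 fold change 0.77, standard error 0.0443, adjusted p = 4.27e-09).

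Epithelial cells are held together by E-cadherin, the product of CDH1, and in the epithelial to mesenchymal transition the transcription factors of the SNAI, ZEB and TWIST families repress CDH1 and other junction genes while cells gain vimentin, fibronectin and often N-cadherin. The SNAI and ZEB proteins bind E-boxes in promoters, and the miR-200 family represses ZEB1 and ZEB2 while ZEB proteins repress the miR-200 genes. MDA-MB-231 is widely used as a mesenchymal-like line of the claudin-low kind, with high VIM and CD44 and low cadherin and claudin RNA. AKT phosphorylates GSK3, a kinase that marks SNAI1 protein for degradation, a control that RNA counts do not measure.

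Of the genes that define the claudin-low state, CDH1 was near 0 and CLDN3 had group means of 0.0703 to 0.853 CPM. EPCAM was between 3.21 and 11.98 CPM and CLDN7 between 5.80 and 26.6 CPM. CLDN4 did not match that description, with group means of 47.8 to 82.4 CPM, and the keratin KRT8 reached 255.6 to 353.9 CPM. The 8 luminal markers summed to 463.0 to 801.8 CPM per library, with KRT8 the most abundant. Of the 5 basal markers 1 passed the filter, EGFR, at 668.0 CPM on average, and KRT5 had no count. The 6 fibroblast markers summed to 16.1 to 38.5 CPM, led by COL1A1, and the 5 leukocyte markers to 0.571 to 2.30 CPM, led by CD14. The 3 endothelial markers summed to 6.96 to 8.16 CPM in WT, 2.38 to 2.89 in KO1, 5.06 to 6.06 in KO2 and 21.1 to 23.5 in myrAKT, where PECAM1 made up most of the sum.

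Levels of different genes were compared as CPM per kilobase of merged exons. Averaged over the 18 libraries, VIM (ENSG00000026025, chromosome 10), which encodes the intermediate filament protein vimentin, was highest at 295.4 ± 28.6 CPM per kilobase (SD, n = 18). CD44 (ENSG00000026508, chromosome 11), a receptor for hyaluronan, followed at 51.8 ± 6.55, and FN1 (ENSG00000115414, chromosome 2), the gene of the matrix protein fibronectin, at 21.2 ± 4.69. Among the transcription factors, ZEB1 (ENSG00000148516, chromosome 10) stood at 12.3 ± 0.896, SNAI2 (ENSG00000019549, chromosome 8) at 4.89 ± 2.03, SNAI1 (ENSG00000124216, chromosome 20) at 3.65 ± 1.11 and ZEB2 (ENSG00000169554, chromosome 2) at 0.934 ± 0.115. Among these 7 genes SNAI2 had the largest spread for its level and ZEB1 the smallest.

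**Figure D1:**
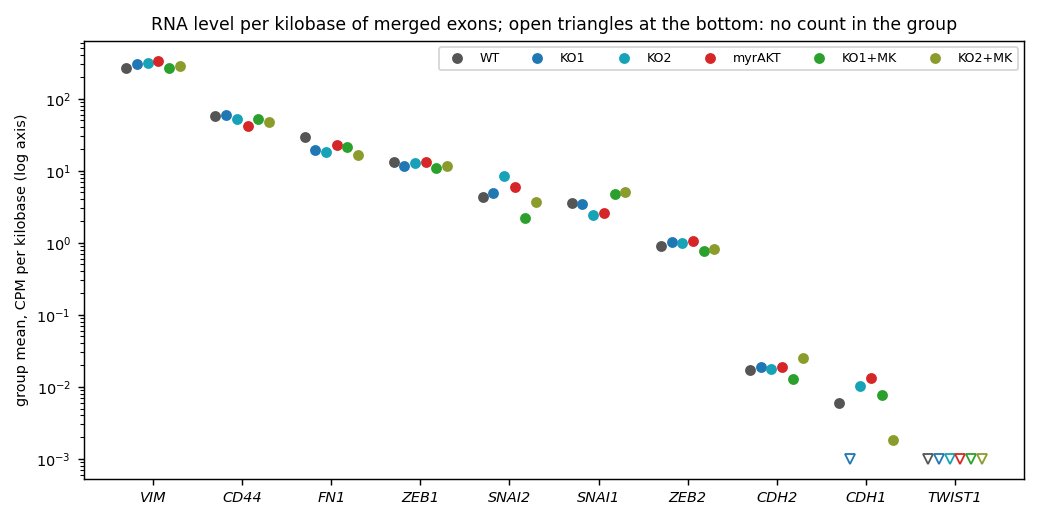
Group means (n = 3) in CPM per kilobase of merged exons, on a log axis, for the 10 genes, with a colour per group and open triangles where a group has no count. VIM, CD44 and FN1 lie above 15 CPM per kilobase in each group, and CDH2, CDH1 and TWIST1 lie below 0.03.

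The cadherins and TWIST1 were at or near 0. TWIST1 (ENSG00000122691, chromosome 7) had no count in any of the 18 libraries, which allows up to 0.0771 to 0.124 CPM per library (3 counts, counting error only). CDH1 (ENSG00000039068, chromosome 16) had 0, 4 and 0 counts in WT, no count in KO1, 2, 3 and 2 in KO2, 3, 4 and 1 in myrAKT, 0, 2 and 2 in KO1+MK and 1, 0 and 0 in KO2+MK. CDH2 (ENSG00000170558, chromosome 18) had 1 to 9 counts per library. No test was run on these 3 genes, which did not pass the filter. The transcripts MIR200CHG and MIR205HG, which give rise to miR-200c with miR-141 and to miR-205, had group means of at most 0.0371 and 0.0111 CPM, and neither passed the filter. Mature miRNAs were not measured by these libraries.

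The miR-200 family and miR-205 are shown because the family is defined by the seed that pairs with ZEB1 and ZEB2 messages. The sequences are from RefSeq on GRCh38.p14, and all 6 names searched for were matched. Capitals mark the seed, bases 2 to 8. The first pair shares 1 seed, the next 3 share a seed that differs from it, and miR-205 has its own.
hsa-miR-141-3p: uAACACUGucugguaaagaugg
hsa-miR-200a-3p: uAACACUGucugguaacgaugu
hsa-miR-200b-3p: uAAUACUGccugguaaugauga
hsa-miR-200c-3p: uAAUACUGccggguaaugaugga
hsa-miR-429: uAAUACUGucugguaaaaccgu
hsa-miR-205-5p: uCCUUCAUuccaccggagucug

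Promoter windows, 250 bases before to 50 after an annotated start in RefSeq (GRCh38.p14), were found for 6 of the 10 genes. CDH1, SNAI1, SNAI2 and TWIST1 had no entry. They were searched on both strands for the E-box of SNAI and ZEB proteins, CACCTG or its reverse complement CAGGTG, and for the CRE motif TGACGTCA, which is its own reverse complement. The E-box is present in 20.6% of the 35116 windows of the table and the CRE in 1.85%. No window of VIM, ZEB2, CDH2, FN1 or CD44 held the E-box. ZEB1 has 7 windows, of which 1 held the E-box once and another held it 3 times, a number reached by 0.635% of all windows. The FN1 window held 1 CRE, which starts 183 bases before the annotated start. The windows with 3 E-boxes and with the CRE are shown with these matches in capitals. A match is a description of the letters and not of binding.
ZEB1, chr10:31318966-31319265, plus strand: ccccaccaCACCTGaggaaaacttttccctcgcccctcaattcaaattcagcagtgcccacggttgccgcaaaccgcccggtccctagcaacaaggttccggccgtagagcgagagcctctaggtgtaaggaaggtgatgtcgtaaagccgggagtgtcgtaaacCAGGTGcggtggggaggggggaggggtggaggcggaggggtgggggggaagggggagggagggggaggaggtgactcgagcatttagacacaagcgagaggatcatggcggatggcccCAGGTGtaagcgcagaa
FN1, chr2:215436019-215436318, minus strand: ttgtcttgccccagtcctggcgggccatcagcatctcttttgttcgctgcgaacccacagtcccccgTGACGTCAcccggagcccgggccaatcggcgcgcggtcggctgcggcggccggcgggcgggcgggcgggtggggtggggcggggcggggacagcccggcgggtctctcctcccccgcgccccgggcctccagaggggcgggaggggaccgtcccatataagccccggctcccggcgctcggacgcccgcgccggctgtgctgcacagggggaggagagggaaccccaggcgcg

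FN1 was lower in the libraries labelled KO1 and KO2 than in WT. It measured 470.1, 549.2 and 517.9 CPM in WT, 332.8, 350.8 and 325.4 CPM in KO1 and 309.0, 328.6 and 291.3 CPM in KO2, and no library of either line reached the lowest WT library. In bulk samples, fewer cells that express a gene and less of its RNA per cell cannot be told apart. The log2 fold change against WT was −0.63 in KO1 (95% interval −0.73 to −0.53, adjusted p = 3.25e-08) and −0.73 in KO2 (−0.86 to −0.60, adjusted p = 2.00e-07). With both lines pooled it was −0.69 (standard error 0.0596, adjusted p = 2.41e-06). Without WT replicate 2, the highest WT library, the KO1 value was −0.56, below the minimum fold change of 1.5 used for a call (adjusted p = 3.56e-08). FN1 was the state gene called in KO1, in KO2 and in both together. Whether the CRE match in its promoter window has a part in this was not tested.

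A gene was called when its adjusted p was at most 0.001 and its fold change at least 1.5. By this rule 1 of the 7 state genes tested was called in KO1 against WT, FN1, where 13.9% of all genes tested were called. In KO2 against WT the number was 3 of 7, beside 16.7% of all genes, and in the pooled comparison 1 of 7, beside 12.7% of all genes. Of all genes, 4.07% were higher and 8.59% lower in the pooled lines. Against these rates the shares of KO1 and of both lines together are close to those of genes at large.

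SNAI2, which encodes the E-box repressor SLUG, rose in the libraries labelled KO2. It measured 13.6, 13.5 and 15.2 CPM in WT, 16.5, 14.7 and 16.5 CPM in KO1 and 26.9, 27.6 and 29.1 CPM in KO2. The KO1 libraries overlapped WT, and the KO2 libraries were above all others of the study. The log2 fold change was 0.98 in KO2 (95% interval 0.85 to 1.11, adjusted p = 1.47e-08) and 0.15 in KO1 (0.00 to 0.30, adjusted p = 0.0670). The pooled value of 0.61 did not pass (standard error 0.224, adjusted p = 0.0329).

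SNAI1, which encodes the related repressor SNAIL, was 5.68, 6.14 and 6.60 CPM in WT, 5.50, 5.56 and 6.55 CPM in KO1 and 4.03, 3.65 and 4.60 CPM in KO2. The KO2 libraries lay below all WT and KO1 libraries. In KO2 SNAI1 fell, in the direction opposite to SNAI2 (log2 fold change −0.59, 95% interval −0.83 to −0.36, adjusted p = 0.000337), and in KO1 it did not pass (−0.09, −0.30 to 0.13, adjusted p = 0.469). The call in KO2 is near both thresholds and rests on 141 to 246 counts per library. It was lost without WT replicate 2 (−0.59, adjusted p = 0.00132), WT replicate 3 (−0.54, adjusted p = 0.00345), KO2 replicate 1 (−0.60, adjusted p = 0.00195) and KO2 replicate 2 (−0.52, adjusted p = 0.00171).

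VIM, ZEB1, ZEB2 and CD44 stayed below a fold change of 1.5 in both lines. VIM was 1362 ± 46.5 CPM in WT, 1548 ± 19.5 in KO1 and 1646 ± 44.8 in KO2 (SD, n = 3 each), and its libraries did not overlap between WT and either line. The log2 fold change was 0.17 in KO1 (adjusted p = 0.000617) and 0.27 in KO2 (adjusted p = 5.45e-05). ZEB1 had a log2 fold change of −0.19 in KO1 (adjusted p = 5.95e-05) and −0.06 in KO2 (adjusted p = 0.137). ZEB2 had values of 0.17 (adjusted p = 0.0115) and 0.14 (adjusted p = 0.0268). CD44 had a value of 0.01 in KO1 (adjusted p = 0.719), which was −0.02 when libraries were scaled by their totals alone, and −0.16 in KO2 (adjusted p = 0.00233).

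**Figure D2:**
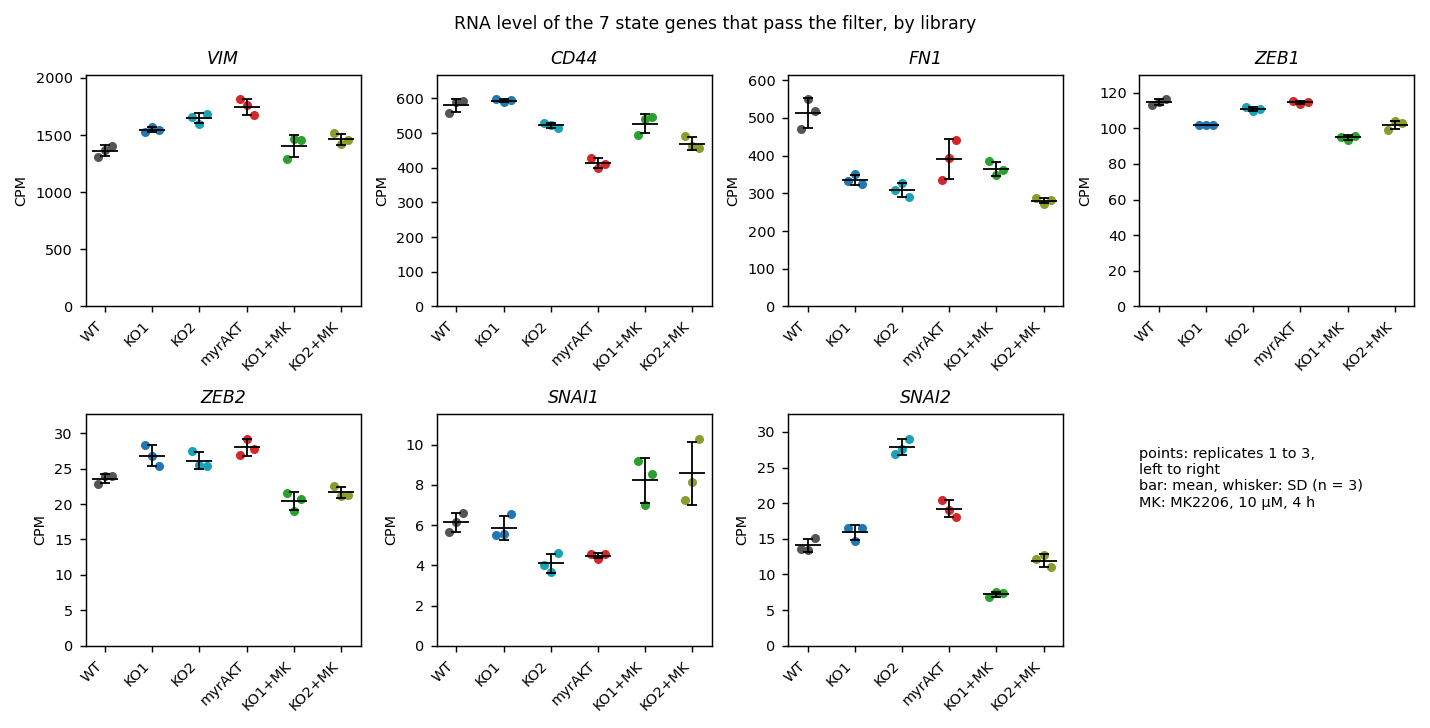
CPM on TMM library sizes in each of the 18 libraries (points) with the group mean and SD (n = 3) for the 7 state genes that pass the filter, on axes that start at 0. FN1 is highest in WT, SNAI2 is highest in KO2 at 26.9 to 29.1 CPM and lowest in KO1+MK at 6.80 to 7.51 CPM, and SNAI1 is highest in the treated groups.

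Among genes tied to the epithelial state, as among all genes, more fell than rose in the libraries labelled KO. The state genes and all lists were chosen with earlier results of these data known. Their shares beside those of all genes are therefore a description. Of 52 listed epithelial genes 42 were tested, and in the pooled comparison 13 were lower and 3 higher, beside 8.59% and 4.07% of all genes, with a median log2 fold change of −0.34 beside −0.003 for all genes. Without SPINT1, which reached the filter only through the WT libraries, 12 of 41 were lower and 3 higher, beside 8.31% and 4.08% of the genes that reach it outside their higher side, with a median of −0.33. SPINT1, which encodes an inhibitor of membrane-bound serine proteases, was 9.19, 8.11 and 9.66 CPM in WT, 0.815, 0.944 and 0.829 CPM in KO1 and 0.0857, 0.0257 and 0.109 CPM in KO2, where it had 3, 1 and 4 counts. The filter favours a difference in a gene that enters a test in this way, without forcing one, so its levels are given as a description. This split of the list was added after seeing the data. ELF3, an epithelial transcription factor, fell by 2.19 on the log2 scale (adjusted p = 0.000103). TJP3, a tight junction scaffold, fell by 2.06 (adjusted p = 9.35e-06). Among those that rose were MAL2 (2.25, adjusted p = 2.06e-05), a protein of apical transport, and AP1M2 (0.70), which falls outside the naming rule and was picked with its value known.

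The mesenchymal list did not move the opposite way. Of 47 genes 35 were tested, and 9 were lower and 1 higher in the libraries labelled KO, beside 8.59% and 4.07% of all genes, with a median of −0.36. ACTA2, smooth muscle actin, fell by 1.07 on the log2 scale (adjusted p = 4.17e-05). ITGA5, the alpha subunit of the main fibronectin receptor, fell by 0.77 (adjusted p = 6.91e-07). COL6A2, a chain of the matrix protein collagen VI, fell by 0.80 (adjusted p = 0.000642), a call lost without WT replicate 1 (−0.82, adjusted p = 0.00362), 2 (−0.79, adjusted p = 0.00415) or 3 (−0.73, adjusted p = 0.00662), or KO1 replicate 1 (−0.72, adjusted p = 0.00154) or 2 (−0.75, adjusted p = 0.00126). By line its value was −1.11 in KO1 and −0.53 in KO2, the latter under the minimum fold change. The gene that rose was TAGLN, an actin-binding protein (0.77, adjusted p = 0.000157), and its call was lost without WT replicate 2 (0.71, adjusted p = 0.00111) or WT replicate 3 (0.75, adjusted p = 0.00120). Without these WT libraries in turn, 6 and 5 of the 35 genes were called in place of 10.

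Lists of genes that act with the state genes are set beside the 12.7% of all genes called in this comparison. Of 9 other transcription factors of the transition that were tested, SOX4 was the 1 called, and it was lower (−0.69, adjusted p = 9.29e-05), a call lost without WT replicate 2 (−0.58, adjusted p = 0.00126) or 3 (−0.60, adjusted p = 0.00144). Among 13 corepressor partners of SNAI and ZEB proteins EZH2, the histone methyltransferase of PRC2, rose (0.72, adjusted p = 1.78e-07). PAK1, a kinase that phosphorylates SNAI1, was the 1 of 13 regulators of SNAI and ZEB protein stability that was called (−0.72, adjusted p = 2.24e-06), and SMAD3 the 1 of 12 genes of the TGF-beta signal (−0.67, adjusted p = 2.30e-06). At an unadjusted p under 0.05 were 7 of the 9 transcription factors, 11 of the 13 corepressor partners, whose median was 0.24, 9 of the 13 stability regulators and 4 of the 12 TGF-beta genes, beside 63.9% of all genes.

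The counts in this paragraph stand beside 8.59% of all genes lower and 4.07% higher. Of 14 genes for CD44 ligands and linkers, HAS2, a hyaluronan synthase, was lower (−1.66, adjusted p = 9.92e-05), and it did not pass without WT replicate 3 (−1.54, adjusted p = 0.00111). Of 7 fibronectin receptors and crosslinkers 3 were lower, ITGB3 (−1.51), ITGA5 and ITGB5 (−0.60), and their median was −0.41. ITGB3 did not pass without WT replicate 2 (adjusted p = 0.00250) or 3 (adjusted p = 0.00228). ITGB5 was −0.48 in KO1 and −0.71 in KO2, and the pooled value was under the minimum fold change without WT replicate 2 (−0.55) or 3 (−0.54), without KO2 replicate 1 (−0.58), 2 (−0.55) or 3 (−0.57), with no filter on low counts (−0.56) and with all 18 libraries in 1 fit (−0.58). Of 4 catenins tested, JUP, the plakoglobin of desmosomes, was lower (−1.02, adjusted p = 6.81e-07). Among the marker lists, 2 of 7 luminal markers were lower, ERBB3 (−1.45) and KRT19 (−0.97). Of these 7, 3 had a value above 0 and were not called. The 8 luminal markers summed to 722.7 to 777.9 CPM in WT, 776.1 to 801.8 in KO1 and 601.3 to 651.5 in KO2. The endothelial marker CDH5 was lower (−1.98), and it was not called without WT replicate 1 (−1.96) or 3 (−1.86). The endothelial VWF and the leukocyte marker CD14 reached the filter only through the WT libraries, so no result is drawn from their tests. By edgeR and DESeq2, 0 of the 1 basal and 2 fibroblast markers tested were called, with 0 and 2 at an unadjusted p under 0.05, beside 63.9% of all genes. The markers ERBB3, KRT19 and CDH5 were thus lower in the libraries labelled KO, with luminal markers on both sides of 0. The part of these markers in the results was not tested.

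In MB231-myrAKT none of the 7 state genes reached both thresholds against WT in edgeR or in DESeq2, while 13.8% of all genes tested were called, 4.94% higher and 8.83% lower. At an unadjusted p under 0.05, 6 of the 7 differed, beside 59.2% of all genes. VIM was 1312, 1368 and 1405 CPM in WT and 1812, 1762 and 1672 CPM in myrAKT, with no overlap (log2 fold change 0.35, 95% interval 0.24 to 0.46, adjusted p = 4.05e-05). SNAI2 was 20.5, 19.0 and 18.1 CPM, above each WT and KO1 library and below each KO2 library (0.44, 0.29 to 0.59, adjusted p = 0.000125). CD44 was 428.5, 399.8 and 411.1 CPM in myrAKT and 558.8, 588.9 and 593.3 CPM in WT, the lowest of the 6 groups (−0.50, −0.60 to −0.39, adjusted p = 7.54e-07). For these 3 genes the difference passed the adjusted p but not the minimum fold change of 1.5.

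The other members gave smaller or less certain values in MB231-myrAKT. FN1 was 335.7, 393.2 and 441.7 CPM, below each WT library, with the widest spread of its groups (log2 fold change −0.40, adjusted p = 0.00136). SNAI1 had a value of −0.46 (adjusted p = 0.00243) and ZEB2 a value of 0.24 (adjusted p = 0.00212). ZEB1 was the same within its error (−0.01, 95% interval −0.09 to 0.08, adjusted p = 0.912). The WT libraries here are those used for the knockout lines, so the values of the lines and of myrAKT are not independent.

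**Figure D3:**
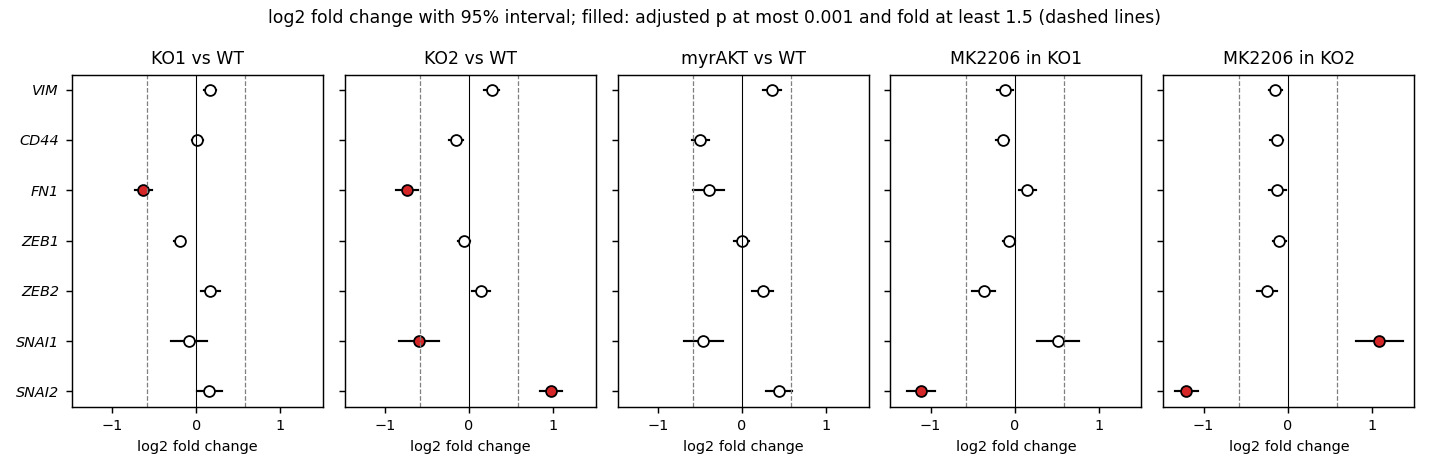
The log2 fold change (points) with its 95% interval (lines) of the 7 state genes in 5 comparisons, 3 libraries against 3 in each. Filled points passed an adjusted p of 0.001 and a fold change of 1.5, which the dashed lines mark. SNAI2 lies to the right in KO2 against WT at 0.98 and to the left in both MK2206 comparisons at −1.11 and −1.20.

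In the epithelial list, 18 of the 42 genes tested were lower and 2 higher in MB231-myrAKT, beside 8.83% and 4.94% of all genes, with a median of −0.47 beside 0.02 for all genes. Without SPINT1, which reached the filter only through WT and was 0.210, 0.192 and 0.258 CPM in myrAKT, 17 of 41 were lower and 2 higher, beside 8.68% and 4.43% of the genes that reach it outside their higher side, and the median was −0.43. KRT7, a keratin of simple epithelia, was 93.8, 99.7 and 98.3 CPM in WT and 16.1, 18.4 and 15.8 CPM in myrAKT (−2.55, adjusted p = 4.78e-13), and ELF3 fell by 2.40 on the log2 scale. The 2 that rose were MAL2 (4.89, adjusted p = 7.37e-11) and CD24 (1.39), the latter named after its value was seen.

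The mesenchymal list split in MB231-myrAKT, with 7 genes higher and 8 lower of 35, beside 4.94% and 8.83% of all genes, and a median of −0.13. Without DPYSL3, which reached the filter only through the myrAKT libraries, 6 were higher and 8 lower of 34 and the median was −0.18. DPYSL3, a cytoskeletal regulator, was 0.439, 0.822 and 0.725 CPM in WT and 11.02, 11.8 and 11.8 CPM in myrAKT, given as a description. S100A4, a calcium-binding protein linked to motility, rose by 2.54 and the matrix protein tenascin C, TNC, by 2.01. PDGFRB, a growth factor receptor that also stands among the fibroblast markers, fell by 1.73 (adjusted p = 5.88e-09).

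The further lists in MB231-myrAKT stand beside 13.8% of all genes called, 4.94% higher and 8.83% lower. Of the other 9 transcription factors of the transition, SOX9 (0.76) and FOXC1 (0.60) rose and TCF4 (−1.44) fell. FOXC1 was under the minimum fold change without WT replicate 2 (0.55) or myrAKT replicate 1 (0.55), and with no filter on low counts (0.57). Of the TGF-beta genes TGFB2, a ligand, fell by 2.13 on the log2 scale and SMAD3 by 0.72. Of the 13 CD44 ligand and linker genes that reach the filter outside their higher side, HAS3 (1.34) and HMMR (1.01, named after its value was seen) rose, while HAS2 (−1.65) and the linker RDX (−1.12) fell. SPP1, which encodes the ligand osteopontin, reached it only through the myrAKT libraries, so no result is drawn from its test. PRMT5 (−0.62) was the 1 called of 13 corepressor partners, and it was under the minimum fold change when libraries were scaled by their totals (−0.58). ITGB3 (−0.88) was the 1 called of 7 fibronectin receptors and crosslinkers, and it did not pass without WT replicate 3 (−0.82, adjusted p = 0.00120). Of 13 regulators of SNAI and ZEB protein stability and 4 catenins, 0 were called by edgeR or DESeq2, with 9 and 4 at an unadjusted p under 0.05, beside 59.2% of all genes. Among markers, 3 of 7 luminal genes were lower, KRT19 (−1.93), FOXA1 (−0.85) and ERBB3 (−0.83), and of the endothelial genes CDH5 fell (−3.09) and PECAM1 rose (2.55). Of the 1 basal marker tested 0 were called by either tool, with 1 at an unadjusted p under 0.05, beside the same share of all genes. The part of these markers in the results was not tested.

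**Figure D4:**
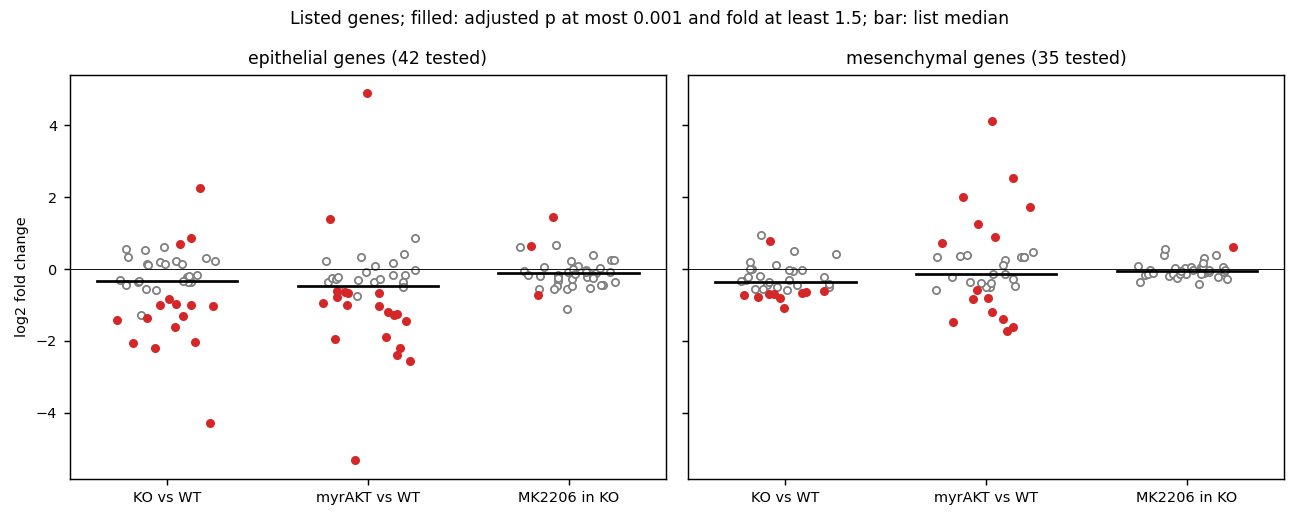
The log2 fold change of the 42 epithelial and 35 mesenchymal genes tested, 1 point per gene, in the pooled knockout lines against WT, in myrAKT against WT and with MK2206 in the pooled lines. Filled points were called and bars are list medians, which for the epithelial list are −0.34, −0.47 and −0.12 and for the mesenchymal list −0.36, −0.13 and −0.07.

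The MK2206 libraries address what 4 h of AKT inhibition does in the knockout lines. Their untreated comparators also stand in the comparisons with WT, so those values and the values below are not independent. SNAI2 fell in both. In KO1 it went from 16.5, 14.7 and 16.5 CPM to 6.80, 7.51 and 7.34 CPM, below each WT library (log2 fold change −1.11, 95% interval −1.28 to −0.95, adjusted p = 2.05e-07). In KO2 it went from 26.9, 27.6 and 29.1 CPM to 12.1, 12.7 and 11.02 CPM, again below each WT library (−1.20, −1.34 to −1.07, adjusted p = 4.67e-09). These calls held in each of the 6 fits per line that left out 1 library.

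SNAI1 moved the other way under MK2206. In KO2 it rose from 4.03, 3.65 and 4.60 CPM to 7.25, 8.15 and 10.3 CPM (log2 fold change 1.09, 95% interval 0.81 to 1.36, adjusted p = 8.92e-06). In KO1 it was 5.50, 5.56 and 6.55 CPM without and 9.17, 6.99 and 8.54 CPM with MK2206, with no overlap (0.51, 0.26 to 0.76, adjusted p = 0.00308). The KO1 value did not pass, but it did without KO1+MK replicate 2 (0.61, adjusted p = 0.000927). The treated libraries had fewer counted reads than the untreated ones, and SNAI1 had 189 to 308 counts in them and 141 to 237 in the untreated lines. The part of this difference in depth was not tested.

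Of the 7 state genes tested, 1 was called with MK2206 in KO1, beside 5.01% of all genes, and 2 in KO2, beside 7.06%. With the lines pooled 2 were called, SNAI1 higher and SNAI2 lower, beside 6.53% of all genes, 4.50% higher and 2.03% lower. The pooled SNAI2 value was −1.17 (standard error 0.214, adjusted p = 0.000475) and the pooled SNAI1 value 0.78 (standard error 0.137, adjusted p = 0.000349). The pooled SNAI2 call was lost in 7 of 12 fits that each left out 1 library, with values over all 12 of −1.27 to −1.07 and adjusted p up to 0.00154, and the SNAI1 call was lost in 3 of 12. The SNAI2 call was lost without KO2 replicate 1 (−1.10), 2 (−1.08) or 3 (−1.07), without KO1+MK replicate 1 (−1.09), 2 (−1.11) or 3 (−1.10) and without KO2+MK replicate 3 (−1.22). The SNAI1 call was lost without KO2 replicate 3 (0.75, adjusted p = 0.00114), KO1+MK replicate 1 (0.74, adjusted p = 0.00110) or KO2+MK replicate 3 (0.70, adjusted p = 0.00104). With the line as a covariate, an alternative added after seeing the data, the SNAI2 value was −1.17 (standard error 0.0490, adjusted p = 1.33e-12) and the SNAI1 value 0.79 (adjusted p = 8.57e-06).

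The other 5 members tested stayed below a fold change of 1.5 with MK2206. ZEB2 had a log2 fold change of −0.37 in KO1 (adjusted p = 0.000386) and −0.25 in KO2 (adjusted p = 0.00189), from 26.8 ± 1.49 to 20.4 ± 1.29 CPM and from 26.1 ± 1.18 to 21.6 ± 0.832 CPM (SD, n = 3 each), with no overlap in either line. ZEB1 gave −0.08 and −0.10, VIM −0.12 and −0.15, and CD44 −0.15 and −0.14, each below 0 in both lines and with an adjusted p above 0.001. FN1 gave 0.15 in KO1 (adjusted p = 0.0212) and −0.12 in KO2 (adjusted p = 0.0346), and its pooled value of 0.02 had an interval of −0.16 to 0.20.

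Of 42 epithelial genes 2 were higher and 1 lower with MK2206 in the pooled lines, beside 6.53% of all genes called, and 24 were at an unadjusted p under 0.05, beside 53.4% of all genes. The median of the list was −0.12. GRHL1, a grainyhead transcription factor of epithelia, rose from 2.63, 3.08 and 3.07 CPM to 7.47, 7.77 and 8.02 CPM in KO1 and from 3.06, 2.80 and 2.96 CPM to 7.32, 7.51 and 8.99 CPM in KO2 (pooled log2 fold change 1.44, standard error 0.0714, adjusted p = 9.56e-09). JUP, which was lower in the libraries labelled KO than in WT, rose (0.65, adjusted p = 6.00e-07), and it is also the 1 called of 4 catenins. Both JUP values use the same untreated libraries of the lines. PARD6B, a polarity protein, fell (−0.71, adjusted p = 1.38e-07).

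Of 35 mesenchymal genes 13 were at an unadjusted p under 0.05, beside 53.4% of all genes, and 1 was called, CCN2, which encodes a matricellular protein (0.61, adjusted p = 4.84e-05), and it was under the minimum fold change without KO2+MK replicate 1 (0.55), 2 (0.56) or 3 (0.56), with no filter on low counts (0.57) and with all 18 libraries in 1 fit (0.57). The pooled value covers a difference between the lines, since CCN2 was 0.38 in KO1, under the minimum fold change, and 0.80 in KO2 (adjusted p = 1.92e-09), and the difference of 0.41 (95% interval 0.32 to 0.51) had an adjusted p of 0.000175. Among 13 corepressor partners AJUBA, a LIM protein that binds SNAI proteins, fell from 270.7, 258.1 and 272.7 CPM to 130.9, 141.7 and 143.8 CPM in KO1 and from 306.1, 283.8 and 291.6 CPM to 170.7, 157.0 and 148.0 CPM in KO2 (pooled log2 fold change −0.89, adjusted p = 6.45e-08). Its treated libraries lay below each WT library, as those of SNAI2 did. FOXQ1 was the 1 called of 9 other transcription factors (−0.61, adjusted p = 6.17e-06), and it was under the minimum fold change without KO2 replicate 3 (−0.58) or KO1+MK replicate 1 (−0.58).

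The lists in this paragraph stand beside 6.53% of all genes called with MK2206, 4.50% higher and 2.03% lower. Of the 12 TGF-beta genes TGFB2 fell (−0.80, adjusted p = 1.76e-05), while the inhibitory SMAD7 (0.91, adjusted p = 9.08e-05) and SKI (0.63, adjusted p = 5.95e-06) rose, the latter under the minimum fold change without KO2+MK replicate 3 (0.56). By line SMAD7 and SKI were called in KO2 and not in KO1 (0.72, adjusted p = 0.00136, and 0.50). Of the 14 CD44 ligand and linker genes HAS2 fell (−1.52) and CEMIP2 (0.80) and CEMIP (0.60), which take part in hyaluronan turnover, rose. The pooled HAS2 call was lost without KO1 replicate 1 (−1.43), 2 (−1.43) or 3 (−1.41), KO1+MK replicate 3 (−1.48) or KO2+MK replicate 1 (−1.43), 2 (−1.43) or 3 (−1.47). By line HAS2 was called in KO1 (−1.52) and in KO2 (−1.48). The CEMIP call was lost without KO1 replicate 1 (0.61), 2 (0.60) or 3 (0.58), KO2 replicate 2 (0.61) or 3 (0.57), KO1+MK replicate 1 (0.50) or KO2+MK replicate 1 (0.62), 2 (0.58) or 3 (0.62), with no filter on low counts (0.57) and with all 18 libraries in 1 fit (0.58), and CEMIP was called in neither line alone (0.70 in KO1 and 0.50 in KO2). Of 13 regulators of SNAI and ZEB protein stability and 7 fibronectin receptors and crosslinkers, 0 were called by edgeR or DESeq2, with 10 and 3 at an unadjusted p under 0.05, beside 53.4% of all genes. Of 7 luminal markers GATA3 (−0.82) fell and ERBB3 (0.69) and FOXA1 (0.79) rose, and the FOXA1 call was lost without KO2 replicate 1 (0.72), 2 (0.74) or 3 (0.70), KO1+MK replicate 1 (0.77), 2 (0.76) or 3 (0.74) or KO2+MK replicate 2 (0.78) or 3 (0.78). GATA3 was called in KO2 (−1.04) and not in KO1 (−0.62, adjusted p = 0.00573). FOXA1 was called in KO2 (1.06) and, near the minimum fold change, in KO1 (0.592). The pooled fits had no term for the line, so a difference in level between the lines counted as spread in them. In untreated KO2 against KO1 the log2 fold change was −0.91 for HAS2, −0.70 for FOXA1 and 0.06 for CEMIP. The part of this spread in the lost calls was not tested. Of the 1 basal, 2 fibroblast, 1 leukocyte and 3 endothelial markers tested 0 were called by edgeR or DESeq2, with 1, 1, 0 and 0 at an unadjusted p under 0.05, beside the same share of all genes.

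The balance of the 2 SNAI genes was followed as the ratio of SNAI2 to SNAI1 in CPM per kilobase, a description chosen after the values were seen and given without a test. The ratio was 1.25, 1.14 and 1.19 in WT, 1.56, 1.38 and 1.31 in KO1, 3.47, 3.93 and 3.28 in KO2 and 2.33, 2.29 and 2.07 in myrAKT. With MK2206 it was 0.386, 0.558 and 0.447 in KO1 and 0.869, 0.810 and 0.557 in KO2. Per kilobase of merged exons the ratio was above 1 in the 12 untreated libraries and below 1 in the 6 treated ones. With the length of the longest transcript, an alternative added after seeing the data, it was below 1 in 5 libraries, and KO2+MK replicate 1 was at 1.01. The ratio of ZEB1 to ZEB2 was between 11.5 and 14.7 as a group mean with merged exons and between 5.82 and 7.47 with the longest transcripts.

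**Figure D5:**
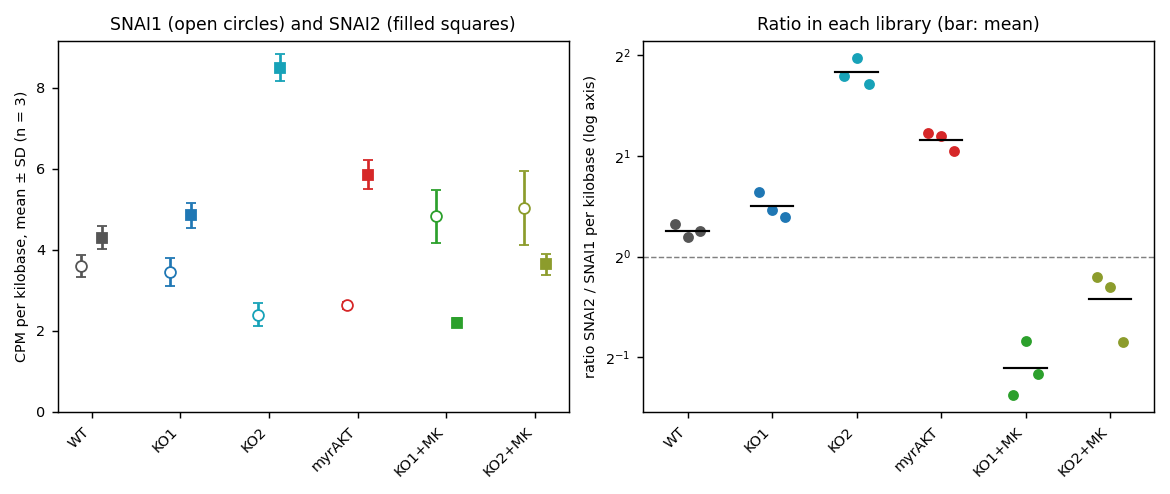
Left, group mean and SD (n = 3) of SNAI1 (open circles) and SNAI2 (filled squares) in CPM per kilobase. Right, their ratio per kilobase of merged exons in each library on a log axis with the group mean as a bar and a dashed line at equality. The 12 untreated libraries lie above the line, up to 3.93 in KO2, and the 6 treated ones below it, down to 0.386 in KO1+MK. With the length of the longest transcript KO2+MK replicate 1 was at 1.01.

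The libraries labelled KO1 and KO2 were also compared directly, since they come from separate sgRNA sets. SNAI2 was higher in KO2 than in KO1 (log2 fold change 0.82, 95% interval 0.70 to 0.94, adjusted p = 9.52e-09) and was the 1 called of 7 state genes, beside 2.62% of all genes. SNAI1 was lower in KO2 (−0.51, adjusted p = 0.00180) and passed without KO2 replicate 3 (−0.60, adjusted p = 0.000871). ZEB1 gave 0.13 (adjusted p = 0.00158) and CD44 −0.17 (adjusted p = 0.000256), both below the minimum fold change. The listed genes below were picked for this comparison with their values known. Of the 42 epithelial genes 4 were lower in KO2 than in KO1, SPINT1 (−3.50), ELF3 (−1.34), CLDN1 (−1.08) and CLDN7 (−0.79), and the ELF3 call was lost without KO1 replicate 2 (−1.12, adjusted p = 0.00134) or KO2 replicate 1 (−1.17, adjusted p = 0.00134). Of the 35 mesenchymal genes 2 were higher, S100A4 (0.73, adjusted p = 3.47e-07) and the matrix protein gene SPARC (0.89, adjusted p = 0.00055). SPARC was not called by DESeq2 (adjusted p = 0.00126), nor without KO1 replicate 1 (0.95), 2 (0.83) or 3 (0.91) or KO2 replicate 1 (0.87) or 3 (0.88). HAS2 (−0.91) and ITGB3 (−0.90) were lower, 1 called of 14 CD44 ligand and linker genes and 1 of 7 fibronectin receptors and crosslinkers. HAS2 was not called by DESeq2 (adjusted p = 0.00140), nor without KO1 replicate 1 (−0.92), 2 (−0.92) or 3 (−0.88) or KO2 replicate 1 (−0.91) or 2 (−0.83), and ITGB3 was not without KO1 replicate 2 (−0.79, adjusted p = 0.00150). Among markers the luminal FOXA1 was lower (−0.70, adjusted p = 5.33e-05) and the endothelial PECAM1 higher (1.22, adjusted p = 2.08e-06), and their part in the results was not tested.

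The effect of MK2206 was tested for a difference between the lines with an interaction term. No gene was called by edgeR (0.00% of all genes) and 5 by DESeq2, with 1251 of 15587 genes at an unadjusted p under 0.05. Of the 7 state genes 2 were at an unadjusted p under 0.05, SNAI1, with a larger rise in KO2 by 0.57 (95% interval 0.18 to 0.97, adjusted p = 0.375), and FN1 (−0.27, −0.41 to −0.12, adjusted p = 0.171). For SNAI2 the difference was −0.09, with an interval of −0.30 to 0.12 (adjusted p = 0.856).

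The pooled knockout lines were compared with MB231-myrAKT as well, and 16.2% of all genes were called but none of the 7 state genes, by edgeR or by DESeq2. At an unadjusted p under 0.05, 4 of the 7 differed, beside 66.3% of all genes. CD44 had the largest value, 0.42 higher in the libraries labelled KO than in myrAKT on the log2 scale (95% interval 0.29 to 0.54, adjusted p = 5.62e-05), with no overlap of the libraries. FN1 gave −0.29 (adjusted p = 0.00691) and VIM −0.15 (adjusted p = 0.0138). ZEB1 gave −0.13 (adjusted p = 0.0269), with no overlap of its libraries, and SNAI2, whose levels in myrAKT lie between those of the lines, gave 0.17 (−0.31 to 0.65, adjusted p = 0.510). In the libraries labelled KO, 10 of 42 epithelial genes were higher and 9 lower. Of the mesenchymal list 6 of 35 were higher and 12 lower, 11 without DPYSL3, which reached the filter only through myrAKT. Of all 15587 genes 1062 were higher and 1463 lower. Among markers, 2 of 7 luminal and 1 of 2 fibroblast genes were higher and 1 of 3 endothelial genes lower. The part of these markers in the results was not tested.

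Ordered by group mean, VIM ran from myrAKT (1749 CPM) through KO2, KO1, KO2+MK and KO1+MK to WT (1362 CPM). In this order myrAKT overlapped KO2, KO2+MK overlapped KO1+MK, and KO1+MK overlapped WT. SNAI2 ran from KO2 (27.9 CPM) through myrAKT, KO1, WT and KO2+MK to KO1+MK (7.22 CPM), and KO1 and WT were the only neighbours that overlapped. SNAI1 ran from KO2+MK (8.56 CPM) through KO1+MK, WT, KO1 and myrAKT to KO2 (4.09 CPM), with an overlap within each of the pairs KO2+MK and KO1+MK, WT and KO1, and myrAKT and KO2. FN1 ran from WT (512.4 CPM), which stood clear of the next group, through myrAKT, KO1+MK, KO1 and KO2, which overlapped in turn, to KO2+MK (280.6 CPM). CD44 ran from KO1 (593.8 CPM) and WT, which overlapped, through KO1+MK and KO2, which overlapped, and KO2+MK to myrAKT (413.1 CPM). ZEB1 covered a narrow range, from 114.7 CPM in WT to 94.8 CPM in KO1+MK, and ZEB2 ran from 28.0 CPM in myrAKT to 20.4 CPM in KO1+MK.

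The genes most like each member in log2 CPM were found by Pearson's r over the 18 libraries, among the other 15586 genes. The libraries share 6 conditions, so r mostly reflects the 6 group means, and it is given as a description. For SNAI2 they were ECT2 (0.980), TBC1D2 (0.974) and DDX17 (0.970), and for SNAI1 ATF3 (0.946), RASD1 (0.944) and DAAM1 (0.942). FN1 was most like FRA10AC1 (0.961), FNDC3B (0.951) and LTBP3 (0.942), and CD44 most like RNF26 and MCAM (0.978 each) and TUBA4A (0.976). VIM was most like E2F4 (0.968), ENSG00000250697 (0.959) and PEBP1 (0.956). For ZEB1 they were NTN4 (0.976), CCDC50 (0.953) and DENND2A (0.952), and for ZEB2 NT5DC3 (0.936), PRR7 (0.930) and LRRC41 (0.928).

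Several members overlap other annotated genes, and whether reads were counted by strand is not given in the sources used here, so reads of a gene and its antisense partner cannot be told apart where exons are shared. VIM-AS1 lies opposite VIM with 656 shared exon bases and had 91 to 312 counts per library, beside 31175 to 64753 for VIM. VIM-AS1 was 4.87 ± 0.408 CPM in WT, 6.54 ± 0.203 in KO1, 7.50 ± 0.659 in KO2 and 7.87 ± 0.366 in myrAKT (SD, n = 3 each), and 4.45 ± 0.772 and 4.72 ± 0.751 in KO1+MK and KO2+MK. Like VIM it was highest in myrAKT. ZEB1-AS1 shares 396 exon bases with ZEB1 and had 57 to 167 counts, beside 2295 to 4447 for ZEB1. ZEB2-AS1, CD44-AS1 and CD44-DT had at most 9, 19 and 7 counts in a library.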

How the data were processed

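RNA from 18 libraries of MDA-MB-231 cells, 6 groups of 3, was depleted of ribosomal RNA and sequenced as 75-base paired ends. The authors used FastQC, Trim Galore, HISAT2 on hg38 and featureCounts, and deposited counts of reads per Ensembl gene without normalization. Versions, annotation and strand setting are not given in the sources used here. Between 23419198 and 39319910 reads were counted per library. The mean chi-square per gene between replicates of a group was 2.26 to 11.6, so their counts differed beyond sampling noise.

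The labels put each library in its group. Of the 57448 identifiers 41445 had a symbol, and positions, lengths and overlaps came from GENCODE release 44. The members and gene lists were chosen with earlier results of these data known. The filter asked for 1 CPM or more in 3 or more libraries, counts were scaled by TMM, and each comparison was fitted on its own libraries with edgeR 4.0.16 (glmQLFit, glmQLFTest, two-sided) in R 4.3.3. P-values were adjusted over all 15587 genes by Benjamini-Hochberg, and genes were called where the adjusted p did not exceed 0.001 and the fold change reached 1.5. Standard errors are the log2 fold change over the square root of F, and 95% intervals use the total degrees of freedom. Log2 CPM used a prior count of 2. The comparisons were each line and both lines against WT, myrAKT against WT, MK2206 within each line and both, KO2 against KO1, the difference in the MK2206 effect between lines, and the lines against myrAKT. For both lines together the line was not a covariate.

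Named genes were GPS2, AKT1, the 10 state genes, up to 4 called and non-overlapping genes with the largest change per list in the pooled knockout, myrAKT and pooled MK2206 comparisons, the 3 genes most correlated with each member, and genes that overlap a member. The 16 lists, which hold 207 genes, were the state genes, other transcription factors of the transition, epithelial and mesenchymal genes, corepressor partners and stability regulators of SNAI and ZEB proteins, TGF-beta signal, CD44 ligands and linkers, fibronectin receptors and crosslinkers, catenins, miR-200 and miR-205 hosts, and luminal, basal, fibroblast, leukocyte and endothelial markers. The alternatives were DESeq2 1.42.0, median-ratio factors, library totals, no filter beyond 1 count, all 18 libraries in 1 fit, a replicate block, other thresholds, each library left out, and the length of the longest transcript. The fit was tested on simulated data with known changes. Figures were drawn with matplotlib 3.10.9 under Python 3.11.15. The value of 1 gene of the epithelial list is not reported here.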

Additional observations from a re-analysis of the deposited data

Results flagged for a closer look

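SNAI2 differed between the libraries labelled KO1 and KO2, which are meant to carry the same knockout. The direct comparison of 3 libraries with 3 gave a log2 fold change of 0.82 (KO2 over KO1, standard error 0.0555, adjusted p = 9.52e-09 in edgeR), and each of the 3 KO2 libraries, at 26.9 to 29.1 CPM, was above each KO1 library, at 14.7 to 16.5 CPM. With 1 library left out at a time the value stayed between 0.77 and 0.85.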

How the results depend on the processing

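Of 973 values of the state genes under the alternatives, 937 kept their direction and their side of the thresholds, 16 lost a call, 2 gained one and 18 changed sign. Of 1047 values of the genes named from the other lists, AKT1 not among them, 951 kept both. The other 96 lost the call, for 22 of 73 gene and comparison pairs. The cause was not tested, except that a looser threshold calls more genes by construction.

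With no minimum fold change, the genes called were 6506 in KO1 against WT, 6715 in KO2 against WT, 5006 in both lines against WT, 4677 in myrAKT against WT, 2985, 3416 and 3352 with MK2206 in KO1, in KO2 and in both, 1964 in KO2 against KO1, 2 for the difference between lines and 5581 in both lines against myrAKT. The state genes called were then 3 in KO1, 4 in KO2 and 3 in myrAKT against WT. They were 2 with MK2206 in KO1, 3 with MK2206 in both lines, 2 in KO2 against KO1 and 1 in both lines against myrAKT. At an adjusted p of at most 0.05 the genes called were 1359 and 1661 with MK2206 in KO1 and KO2, 734 in KO2 against KO1 and 7 for the difference between lines, and 2 state genes were called in both lines against WT. With no filter on low counts 638 genes were called in KO2 against KO1 and 33 for the difference between lines, for which DESeq2 called 5.

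With 1 library left out at a time, the state genes called ranged from 0 to 1 in KO1 against WT, 1 to 2 with MK2206 in KO1, 0 to 2 with MK2206 in both lines and 1 to 2 in KO2 against KO1, and the genes called for the difference between lines from 0 to 2.

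The values that changed sign were close to 0. On library totals the log2 fold change was −0.02 for CD44 in KO1 against WT, 0.038 for ZEB1 in myrAKT against WT, −0.015 for CD44 in the difference between lines and −0.013 for AKT1 in both lines against WT. With all 18 libraries in 1 fit it was 0.00019 for ZEB1 in myrAKT and −0.011 for FN1 with MK2206 in both lines, which was −0.011 with no filter. With 1 library left out, CD44 in KO1 ranged from −0.013 to 0.045, AKT1 in both lines from −5e-04 to 0.044, ZEB1 in myrAKT from −0.024 to 0.008, ZEB2 in KO2 against KO1 from −0.07 to 0.014 and FN1 with MK2206 in both lines from −0.044 to 0.055. In the difference between lines CD44 ranged from −0.015 to 0.042, VIM from −0.074 to 0.007 and ZEB1 from −0.032 to 0.007.

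The shared replicate numbers did not pair the libraries. Of 45 pairs with the same number 12 had a correlation of deviations above 0.1 (−0.518 to 0.297), and 0 of 18 libraries correlated best with their own number in every other group. With the replicate number as a block, 2083, 2647, 1647, 2103, 771, 1161, 896, 491, 0 and 2149 genes were called in the 10 comparisons, in the order given above, and 1 state gene with MK2206 in both lines, where SNAI2 had an adjusted p of 0.00177. Of the other named genes, those not called with the block were COL6A2 (adjusted p = 0.00328), ITGB3 (0.00124), CD14 (0.00246), CDH5 (0.00105) and VWF (0.00235) in both lines against WT, and HAS2 (0.00185) and FOXA1 (0.00267) with MK2206 in both lines.

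With 3 libraries per group, p-values rest on few degrees of freedom. No fold change was computed for TWIST1, CDH1 and CDH2, which did not pass the filter, and SNAI1 had 135 to 308 counts per library. Per-length levels depend on the transcript model, since ZEB2 was 0.934 CPM per kilobase of merged exons and 2.55 per kilobase of its longest transcript over all libraries. In the same way VIM went from 295.4 to 573.4, CD44 from 51.82 to 95.35 and FN1 from 21.25 to 39.88. The line was no covariate in the pooled comparisons, and the alternative with it was chosen after seeing the data.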
